A study of Mus musculus with 7 samples.

Results

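The Agilent mouse arrays of this series carry probes for 47 genes of skeletal muscle. The list was drawn up with earlier results of these data known, and its members were then found by name: every probe, controls aside, whose gene name in the scanner files is one of 47 listed contractile, calcium-handling, energy and myogenic regulatory genes was taken. They came to 92 probes of 56605. For 23 genes there was more than 1 probe, and the probe with the brightest Cy5 signal, averaged over the arrays, stood for the gene. Total RNA came from mammary glands of nulliparous FVB mice of 20 to 25 weeks, collected at diestrus. The 3 wild-type mice were littermates, and the 4 PRA transgenic mice overexpressed the A form of the progesterone receptor. In the transgenic mice GAL-4 under the murine cytomegalovirus promoter drove a PR-A gene placed behind GAL-4 binding sites, so expression was not aimed at a single cell type of the gland, and whether the littermates carried either transgene alone is not given in the sources used here. Each array holds the RNA of 1 abdominal gland, without its lymph nodes, so that every mouse gave 1 array. Gland RNA was labeled with Cy5 and hybridized together with a Cy3-labeled commercial reference RNA, the same on every array, with no dye swap, and the 7 arrays sat on 1 slide, with the wild-type glands in 1 row and the PRA transgenic glands in the other, so that genotype and slide row cannot be told apart.

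A mammary gland has no skeletal muscle of its own. Its contractile cells are myoepithelial cells and the smooth muscle of vessels, while the abdominal glands lie under the skin over the striated muscle of the body wall. Skeletal muscle contracts when calcium released from the sarcoplasmic reticulum binds troponin and lets myosin pull on actin. Its fibers fall into fast and slow types, which build their sarcomeres from different genes for the same part: fast glycolytic IIb fibers use the myosin heavy chain Myh4, IIx fibers Myh1, oxidative IIa fibers Myh2 and slow type I fibers Myh7. Troponins, light chains and calsequestrins come in fast and slow versions as well. In bulk tissue, fewer fibers and less RNA per fiber cannot be told apart.

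Each fiber type was described above by its myosin heavy chain. Stretches of 30 bases of these 60-base probes and that of Myh8 are shown, copied from the scanner files, 5′ to 3′. Capitals mark the longest run that the probes of Myh1 and Myh8 had in common.
Myh4 probe, bases 1 to 30: gaagaataatccatctttctgttgagaggt
Myh1 probe, bases 1 to 30: gGAGGTTCACACCAAAATCAtaagcgaaga
Myh2 probe, bases 1 to 30: aatgaccgaagcgaggcacaaaatgtgaaa
Myh7 probe, bases 1 to 30: atgaggagtagctcttgtgctacccagctc
Myh8 probe, bases 27 to 56: gccgaGAGGTTCACACCAAAATCAgcgcag
On mm9, the build of the files, the probes of Myh2, Myh1, Myh4 and Myh8 lay at chr11:67010910-67010969, chr11:67037938-67037997, chr11:67073834-67073893 and chr11:67121925-67121984, along 1 stretch of chromosome 11 in that order, and that of Myh7 at chr14:55589581-55589640. The run shared by the Myh1 and Myh8 probes was 19 bases long. Among the 15 pairs of myosin probes that stood for a gene, Myh3 included, the next longest run was 12 bases, that of the Myh2 and Myh4 probes, and no other pair reached it.

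Levels are given as log2 of the Cy5 signal minus the 75th percentile of log2 Cy5 on the same array, so a difference of 1 between arrays is 2-fold, and a level is compared between arrays, not with that of another probe. Where a probe is called the brightest of a gene or list, this describes its signal and not the amount of its RNA. Myh4, the heavy chain of the fast IIb fiber, had levels of 4.10, -6.69 and 6.72 on wild-type arrays 1, 2 and 3 and -6.10, -4.95, -3.25 and 4.43 on PRA transgenic arrays 1, 2, 3 and 4. It was high on wild-type 1, wild-type 3 and PRA transgenic 4, low on PRA transgenic 3, and not above background on the other arrays. Its level on wild-type 3 was 6.15-fold that on wild-type 1, 4.90-fold that on PRA transgenic 4 and at least 3761-fold that on wild-type 2, where the bound is the dimmest Cy5 signal counted as above background. Each genotype thus held arrays with Myh4 above background and arrays without, and no mean is given over them. Because an array of each genotype was dim, Myh4 did not enter the fit across all probes, and on its log2 ratio of Cy5 to Cy3 an exact permutation test, two-sided and over the 35 ways to split 7 arrays, gave p = 0.457, where 0.0286 is the smallest p that this design allows; the test took the ratios of the 3 dim spots as they stood.

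Myh1 and Myh2, the heavy chains of IIx and IIa fibers, did not have the order of Myh4. The levels of Myh1 were -2.16, -3.87 and -3.19 on the wild-type and -4.75, -5.58, -4.41 and 1.37 on the PRA transgenic arrays. Those of Myh2 were -2.57, -3.26 and -3.54 on the wild-type and -3.29, -4.25, -3.31 and 1.35 on the PRA transgenic arrays. Both were far higher on PRA transgenic 4 than on any other array. On wild-type 3, where Myh4 was highest, Myh2 was within the range of its values on the remaining arrays. Myh1 was not above background on PRA transgenic 1, 2 and 3. Its level on wild-type 3 was at least 1.92-fold, 2.39-fold and 1.87-fold those, 1.60-fold that on wild-type 2 and below that on wild-type 1. The highest arrays of Myh1 were PRA transgenic 4, wild-type 1 and wild-type 3, those of Myh4 in another order. Relative to wild-type 3, PRA transgenic 4 had 23.7-fold more Myh1 and 29.7-fold more Myh2, against 4.90-fold less Myh4. Myh7, the slow heavy chain, had levels of -3.13, -3.13 and -3.48 on the wild-type and -3.40, -3.48, -3.21 and -0.68 on the PRA transgenic arrays. It too stood out on PRA transgenic 4 alone, 6.95-fold above wild-type 3 and 5.43-fold above wild-type 1.

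**Figure D1:**
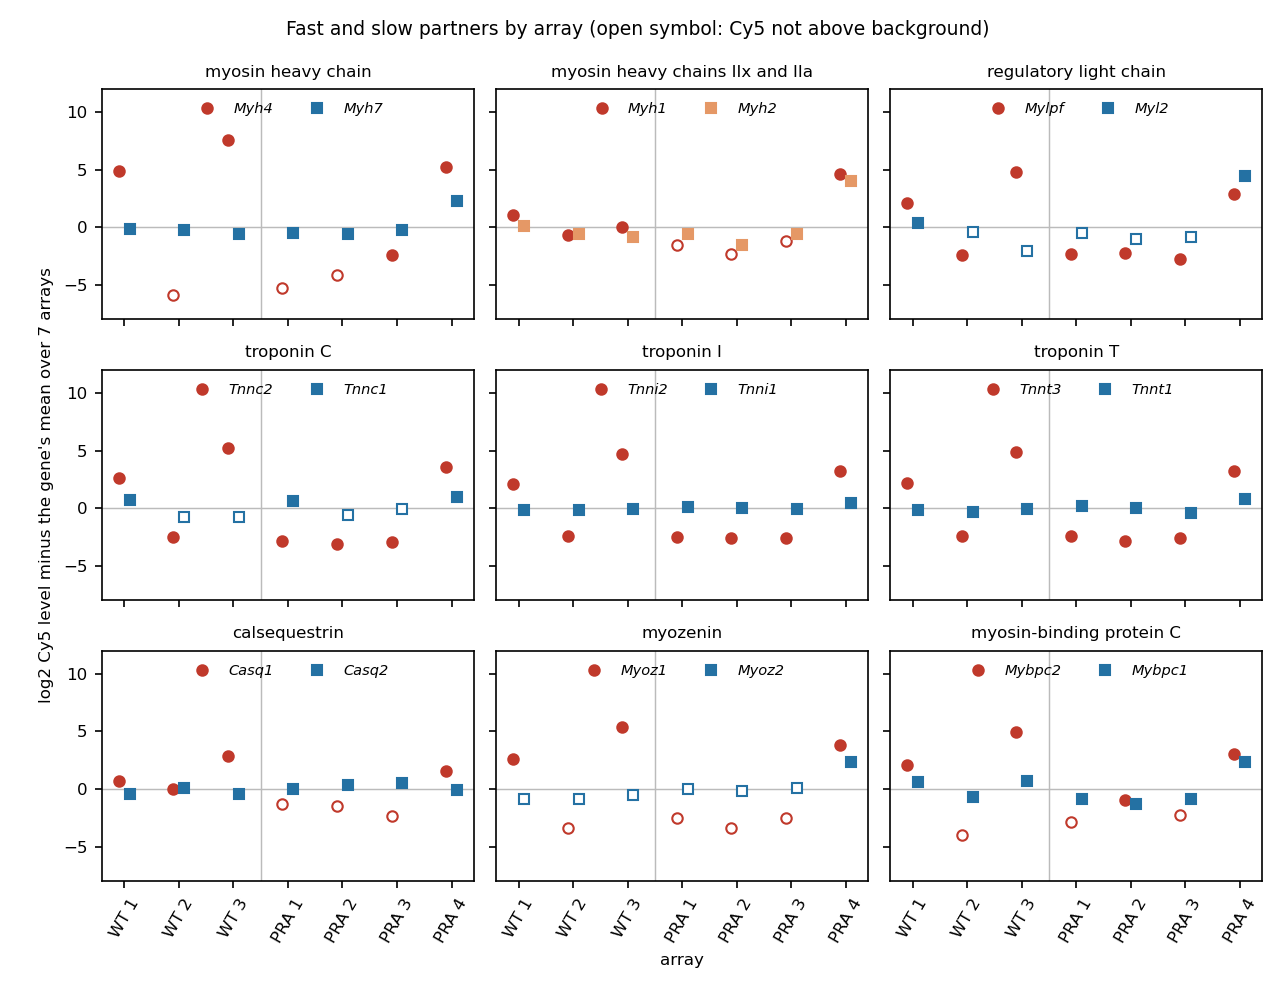
Log2 Cy5 level on each of the 7 arrays, minus the gene's own mean over the arrays, for 8 pairs of fast (red circles) and slow (blue squares) genes with the same role and for the IIx and IIa heavy chains Myh1 (red) and Myh2 (orange); open symbols are arrays on which the probe was not above background, and there are no error bars because each point is 1 array. Most fast genes are high on WT 1, WT 3 and PRA 4 with WT 3 highest, whereas Myh7, Myl2, Myoz2, Myh1 and Myh2 are highest on PRA 4.

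The fast troponin subunits had the profile of Myh4. Tnnc2, the calcium-binding subunit of fast muscle, had levels of 3.87, -1.22 and 6.49 on the wild-type and -1.58, -1.81, -1.67 and 4.88 on the PRA transgenic arrays, and its level on wild-type 3 was 209-fold that on wild-type 2. Tnni2, the inhibitory subunit, had levels of 3.63, -0.92 and 6.20 on the wild-type and -0.995, -1.07, -1.13 and 4.75 on the PRA transgenic arrays. Tnnt3, the subunit that binds tropomyosin, had levels of 2.92, -1.65 and 5.61 on the wild-type and -1.69, -2.10, -1.84 and 3.94 on the PRA transgenic arrays. In all 3 the order was wild-type 3, PRA transgenic 4, wild-type 1 and then, far below and close together, the other arrays. Of their slow partners, Tnni1 and Tnnt1 varied less than Tnni2 and Tnnt3. Tnni1 ranged from -1.15 to -0.52 and Tnnt1 from -0.77 to 0.43, each highest on PRA transgenic 4. Tnnc1 was above background on wild-type 1, PRA transgenic 1 and PRA transgenic 4 only, at most -3.26, and its highest array lay at least 1.81 above its lowest, a lower bound as the lowest was dim.

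The other fast genes repeated the pattern with few exceptions. Mylpf, the fast regulatory light chain, had levels of 1.73, -2.86 and 4.37 on the wild-type and -2.71, -2.69, -3.19 and 2.44 on the PRA transgenic arrays. Pvalb, the calcium buffer of fast fibers, had levels of 2.71, -1.88 and 5.47 on the wild-type and -1.70, -2.02, -1.77 and 3.54 on the PRA transgenic arrays. Atp2a1, the calcium pump of the fast sarcoplasmic reticulum, had levels of -1.01, -3.40 and 1.40 on the wild-type and -3.27, -3.02, -2.89 and 0.03 on the PRA transgenic arrays. All 3 were highest on wild-type 3, followed by PRA transgenic 4 and wild-type 1. Myl1, an essential light chain, had the smallest span of the 15 fast genes (highest array minus lowest array, 2.75 on the log2 scale). Where the lowest array was not above background the span is a lower bound, and for Myh4 it was at least 11.88. Casq1, the calcium store protein, was at 0.05 on wild-type 3 and not above background on PRA transgenic 1, 2 and 3, a span of at least 4.29. Mylk2 and Actn3 had spans of 4.28 and 6.78, and Mybpc2 and Myoz1 of at least 7.76 and at least 7.40. Of the 15 fast genes, 13 were highest on wild-type 3 and 2, Myh1 and Myh2, on PRA transgenic 4. On wild-type 3, 14.7% of all probes measured were highest.

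The 10 slow genes did not share this order. The highest array was PRA transgenic 4 for 7 of them, against 12.5% of all probes. Myl2, the slow regulatory light chain, had levels of -4.58, -5.40 and -6.98 on the wild-type and -5.44, -6.00, -5.75 and -0.48 on the PRA transgenic arrays, a span of at least 4.68. Only wild-type 1 and PRA transgenic 4 were above background, with 17.1-fold more signal on PRA transgenic 4. Myoz2 was above background on PRA transgenic 4 alone, at -3.69. Mybpc1 had levels of -1.92, -3.20 and -1.79 on the wild-type and -3.36, -3.82, -3.38 and -0.16 on the PRA transgenic arrays. It was highest on PRA transgenic 4, followed by wild-type 3 and wild-type 1. Myl3, the slow essential light chain, differed from the rest of the list in its highest array: its levels were 1.38, 0.63 and 3.25 on the wild-type and 0.92, 0.45, 0.90 and 1.94 on the PRA transgenic arrays, highest on wild-type 3 as in most fast genes. Tpm3, a tropomyosin used in many cell types, had a span of 0.23, the smallest of the 25 genes above background on every array. Casq2 spanned 0.94 and was highest on PRA transgenic 3.

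As medians over each list, with every gene taken minus its own mean over the arrays, the fast genes were at 2.07, -2.39 and 4.71 on the wild-type and -2.29, -2.28, -2.32 and 3.04 on the PRA transgenic arrays. The slow genes were at -0.06, -0.39 and -0.25 on the wild-type and -0.0013, -0.38, -0.20 and 0.88 on the PRA transgenic arrays. In Cy5 the median fast gene was thus higher on wild-type 3 than on PRA transgenic 4, and the median slow gene lower. On the log2 ratio the fast medians of these arrays were nearly equal: the fast genes were at 1.61, -1.72 and 2.59 on the wild-type and -1.91, -1.94, -1.41 and 2.56 on the PRA transgenic arrays, and the slow genes at -0.09, -0.39 and -0.16 on the wild-type and -0.16, -0.29, -0.29 and 1.06 on the PRA transgenic arrays. The fast median minus the slow median, on the log2 ratio, was 1.70, -1.33 and 2.75 on wild-type arrays 1, 2 and 3 and -1.76, -1.65, -1.12 and 1.50 on PRA transgenic arrays 1, 2, 3 and 4; in Cy5 alone the value on wild-type 3 was 4.95. These are descriptions of single glands, with 1 array each, and no test was made of them.

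**Figure D2:**
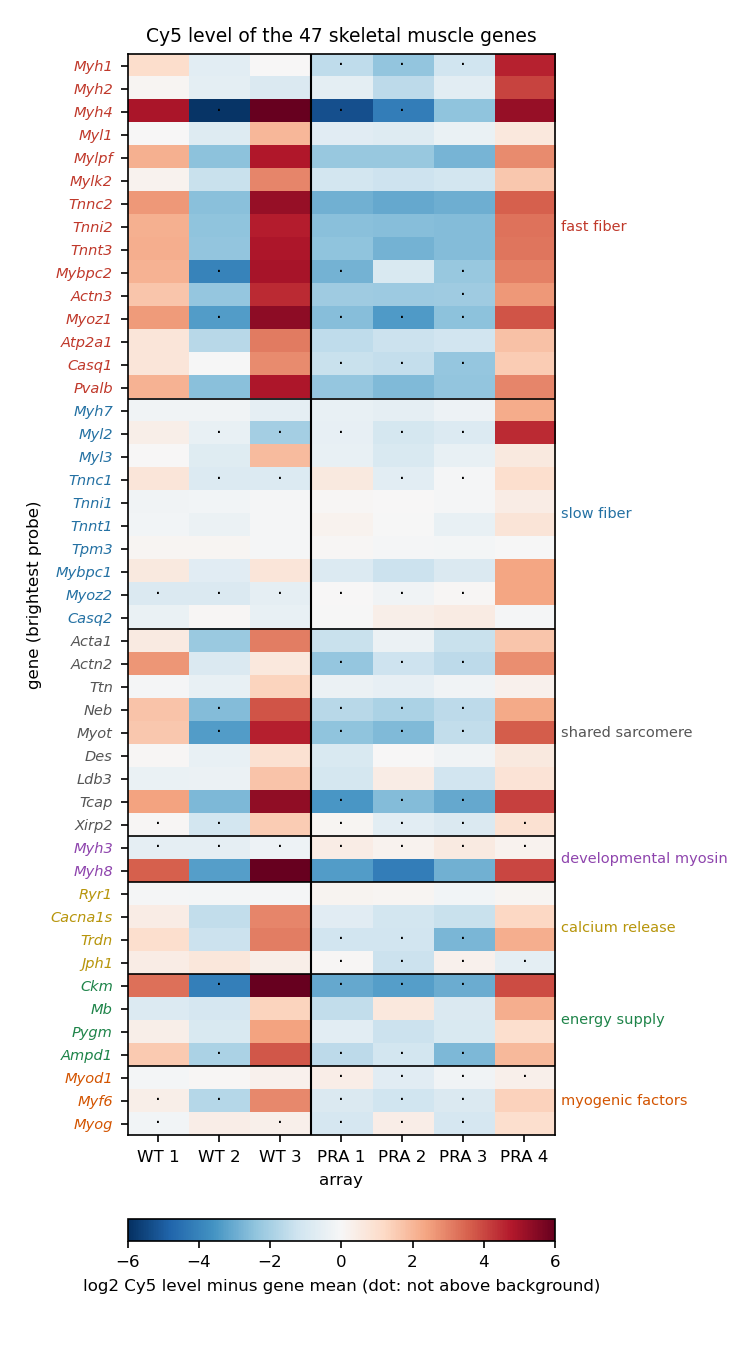
Log2 Cy5 level of the 47 skeletal muscle genes (rows, grouped and colored by role) on the 7 arrays (columns, wild-type left of the line), each gene minus its own mean over the arrays; the color scale stops at 6 above and below the mean, and a dot marks a probe that was not above background. WT 1, WT 3 and PRA 4 are red for most fast, sarcomere and energy genes, and the slow genes Myh7, Myl2, Mybpc1 and Myoz2 are red on PRA 4.

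Most genes of the sarcomere that both fiber types use had the order of the fast genes. Acta1, skeletal muscle actin, had levels of 3.24, 0.49 and 5.81 on the wild-type and 1.38, 2.36, 1.39 and 4.37 on the PRA transgenic arrays. Actn2, which cross-links actin at the Z disc, had levels of -0.35, -3.85 and -2.37 on the wild-type and -5.32, -4.22, -4.57 and -0.22 on the PRA transgenic arrays. Acta1 was highest on wild-type 3, while Actn2 was highest on PRA transgenic 4 and wild-type 1 and lower on wild-type 3. Tcap, the cap of titin at the Z disc, had a span of at least 8.03, and Neb and Myot were above background on wild-type 1, wild-type 3 and PRA transgenic 4 only. Des and Ldb3 spanned 1.84 and 2.86. The brightest Ldb3 probe was 1.84-fold higher on PRA transgenic 2 than on wild-type 1. Another Ldb3 probe (A_51_P265348) had levels of -1.74, -2.66 and -0.04 on the wild-type and -2.86, -3.03, -2.87 and -1.02 on the PRA transgenic arrays. Xirp2 was above background on wild-type 3 alone. For Ttn, the giant spring protein titin, the probes disagreed. The brightest probe had a span of 1.83, whereas another probe (A_55_P2153021) had levels of -1.90, -7.12 and -0.06 on the wild-type and -6.06, -6.36, -6.05 and -1.09 on the PRA transgenic arrays, high on the same 3 arrays as Myh4.

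Of the energy genes, Ckm had a span of at least 8.38 and Mb of 3.65. Ckm, muscle creatine kinase, had levels of 0.31, -7.07 and 3.22 on the wild-type and -6.05, -6.28, -5.98 and 0.94 on the PRA transgenic arrays, above background on wild-type 1, wild-type 3 and PRA transgenic 4 only. Mb, myoglobin, which stores oxygen in oxidative fibers, had levels of -2.23, -2.42 and -0.11 on the wild-type and -2.88, -0.82, -2.31 and 0.76 on the PRA transgenic arrays. Its highest array was PRA transgenic 4, 1.84-fold above wild-type 3 and 7.95-fold above wild-type 1, and PRA transgenic 2 was the third highest. Pygm, the glycogen phosphorylase of muscle, spanned 3.71 and Ampd1, AMP deaminase, at least 5.39, both highest on wild-type 3.

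Among calcium release genes, Cacna1s, the voltage sensor of the calcium channel, had levels of -0.41, -2.32 and 2.07 on the wild-type and -1.56, -1.97, -2.19 and 0.38 on the PRA transgenic arrays, and Trdn, which holds the release complex together, had a span of at least 4.39, against 4.39 for Cacna1s. Ryr1, the release channel itself, again had probes that disagreed. The brightest spanned only 0.28, and another (A_52_P391110) had levels of -1.88, -2.86 and -0.22 on the wild-type and -3.72, -3.29, -3.30 and -0.83 on the PRA transgenic arrays, above background on every array and highest on wild-type 3. Jph1, which ties the reticulum to the surface membrane, was above background on the 3 wild-type arrays, but the 4 PRA transgenic arrays were all dim, with levels of -4.42, -4.15 and -4.48 on the wild-type and -4.76, -6.13, -4.57 and -5.42 on the PRA transgenic arrays. The dimmest log2 Cy5 signal counted as above background, before the 75th percentile was taken off, was 3.13, 3.31 and 3.29 on the wild-type arrays. It was higher, at 3.99, 3.60, 3.97 and 3.67, on the PRA transgenic arrays. A level near it could thus be above background on a wild-type array and dim on a PRA transgenic array.

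Of the developmental myosins, embryonic Myh3 was not above background on any array. Neonatal Myh8 had levels of 3.95, -2.96 and 6.48 on the wild-type and -2.97, -3.80, -2.51 and 4.35 on the PRA transgenic arrays with the probe shown above, nearly the profile of Myh4, but its 3 other probes did not repeat it. Of those, A_51_P239800 and A_55_P2744654 had levels of at most -6.11 and -6.21, and A_55_P2120169 went from -6.39 to -4.37. The bright probe is the one that had 19 bases in common with the Myh1 probe; the transcript of Myh4 was not compared with it here, so its signal is not read as Myh8. It stays among the members in the counts that follow, which are also given without it. Of the myogenic factors, the transcription factors that set muscle identity, Myf6 was above background on wild-type 3 and PRA transgenic 4, Myog on wild-type 2 and PRA transgenic 4, and Myod1 on the 3 wild-type arrays only, with spans of at least 2.82, at least 1.16 and at least 0.36.

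Whether the transgene changed these genes was asked with a fit over all probes, and no member differed between the genotypes at the adjusted threshold. Of the 47, 33 were tested, because 1 or both genotypes had their probe above background on every array, and the other 14 were dim on an array of each genotype (Myh3 on all). No member passed an adjusted p of 0.05 in limma, against 0.0117% of the 34284 probes tested, and the lowest adjusted p was 0.503. At an unadjusted P under 0.01 and 2-fold, the stricter of the rules used in the study, 0 of 33 passed in limma, against 0.796% of all probes tested. At P under 0.05 and 1.5-fold, its less strict rule, 2 of 33 passed, against 4.52% of all probes tested: Myod1 was higher in PRA transgenic glands (1.94% of all probes were) and Jph1 was lower (2.58% were). The 2 make 6.06% of the 33. The groups did not overlap for 1 of the 33, Jph1, against 9.95% of all probes. Both genes were tested only because the wild-type arrays were above background, and none of the 4 PRA transgenic arrays was, so neither the calls nor the lack of overlap rest on levels measured in both genotypes, and the size of their differences is not read (limma, adjusted p = 0.503 for Jph1 and 0.529 for Myod1). In Cy5 alone the sign for Myod1 was the other way. Apart from them, no tested member passed the same rule. Tnni1, with the third lowest P, differed by 0.31 (limma, SE 0.15, adjusted p = 0.608).

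The median difference of the 33 genes, PRA transgenic minus wild-type, was -0.65 on the log2 ratio (0.02 over all probes tested), and 26 of the 33 were below 0, against 45.8% of all probes tested. Of the 33, 8 (Myh1, Casq1, Actn3, Actn2, Tcap, Trdn, Jph1 and Myod1) were tested through the wild-type group alone, with a PRA transgenic array or more not above background. The other 25 were above background on every array: their median was -0.40 (0.03 over all such probes), and 19 were below 0, against 43.8% of such probes. With no filter the median of the 47 was -0.67 (0.04 over all 56605 probes), and 36 were below 0, against 44.9%. Without the probe of Myh8, 25 of 32 and 18 of 24 were below 0, with medians of -0.54 and -0.40. Of the 25, all 9 fast genes and all 4 of the shared sarcomere were below 0, and 4 of 7 slow genes were above 0; with no filter these counts were 15 of 15, 9 of 9 and 7 of 10. Myh1 and Myh2 turned to above 0 with normexp and loess (0.39 and 0.61), Myh1 also with quantile normalization (0.048) and Myh2 in Cy5 alone (0.75), and the slow gene Mybpc1 with quantile normalization (0.081). Of the fast and shared sarcomere genes among the 25, leaving out 1 array turned 4 to above 0: Acta1 (0.40), Ldb3 (0.31) and Myl1 (0.14) without wild-type 3, Ldb3 (0.027) without PRA transgenic 3, and Myh2 without PRA transgenic 2 (0.46) or wild-type 1 (0.021). The Ldb3 values are those of its brightest probe only. With all 7 arrays, the Ldb3 probe A_51_P265348 differed by -0.71 (limma, adjusted p = 0.762). The errors were wide: Tnnc2 differed by -2.10 (limma, SE 1.55, adjusted p = 0.742), and Mylpf, with the widest error, by -2.29 (SE 1.78, adjusted p = 0.756). The median SE of the members was 0.769, against 0.196 over all probes tested. The residual SD, the spread of arrays within a genotype, had a median of 1.20 for the members and 0.267 over all probes. The median itself rested on single glands: it was -0.13 without wild-type 3, -0.37 without PRA transgenic 1, -0.43 without PRA transgenic 3, -1.09 without wild-type 2 and -1.17 without PRA transgenic 4. The count of 2 members at P under 0.05 and 1.5-fold became 7 without PRA transgenic 4, where 6.8% of all probes passed, and 7 without wild-type 2, where 4.58% did. Without PRA transgenic 4, the calls of Casq1, Actn2 and Myod1 had no PRA transgenic array above background, so they do not rest on levels measured in both genotypes. Without wild-type 2, the call of Actn3 had PRA transgenic 3 not above background. The count was 1 without each of the other 5 arrays, where 5.22% (wild-type 1), 4.84% (wild-type 3), 4.78%, 4.66% and 4.03% (PRA transgenic 1, 2 and 3) of all probes passed, with no adjusted p under 0.05 in any of them.

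**Figure D3:**
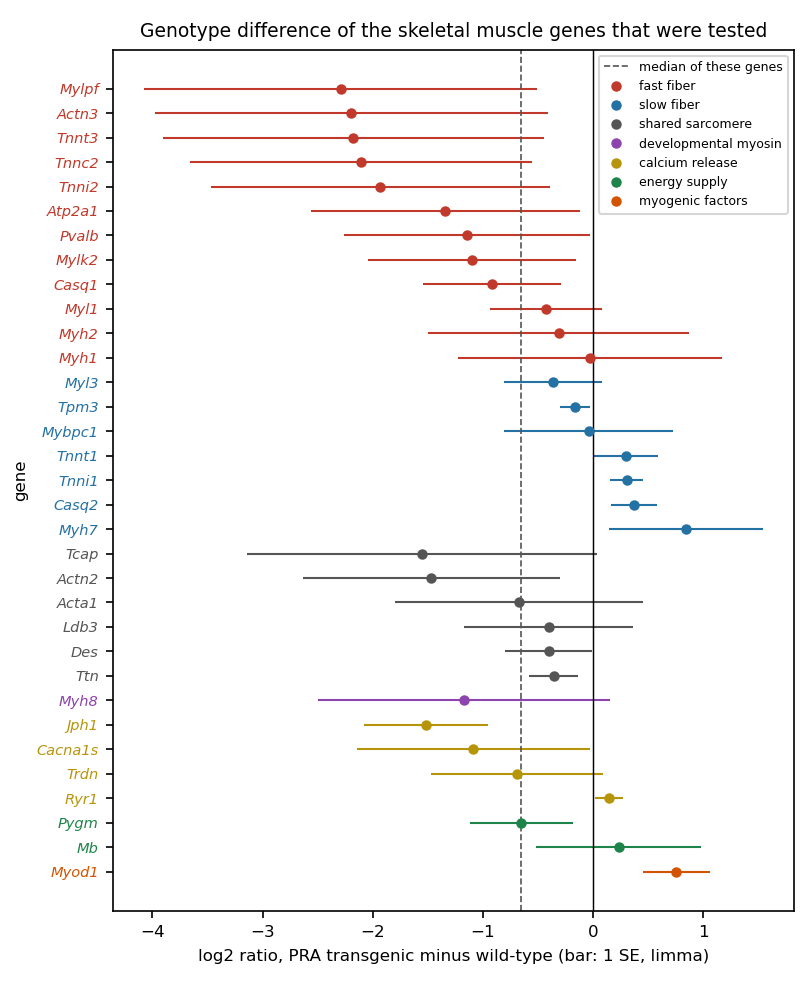
Difference in log2 ratio, PRA transgenic (n = 4) minus wild-type (n = 3), for the 33 skeletal muscle genes that were tested, ordered and colored by role; points are limma estimates, bars 1 SE, and the dashed line is their median, -0.65. The lowest values and the widest bars are those of fast genes, and for Jph1 and Myod1 no PRA transgenic array was above background. For Myh1, Casq1, Actn3, Actn2, Tcap and Trdn at least 1 PRA transgenic array was not above background.

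The spread between glands was the more distinct feature of these genes. From the lowest to the highest array, the Cy5 level of the 33 tested members spanned a median of 4.28 on the log2 scale, against 0.724 for all probes tested, and 17 of 33 spanned 16-fold or more, against 0.858% of all probes. With signals that were not above background raised to the dimmest one that was, the medians were 4.00 and 0.707, and 17 of 33 spanned 16-fold or more, against 0.706%. For the 25 members above background on every array the median was 3.67, against 0.674 for all such probes, and 11 of 25 spanned 16-fold or more, against 0.553%. Without the probe of Myh8 these counts were 16 of 32 and 10 of 24. Members above background numbered 42, 34 and 42 of 47 on wild-type arrays 1, 2 and 3 and 27, 27, 26 and 43 on PRA transgenic arrays 1, 2, 3 and 4. Over all probes, 66.2%, 65.1% and 62.7% were above background on the wild-type arrays and 57.7%, 59.9%, 56.6% and 60.2% on the PRA transgenic arrays. PRA transgenic 4, with fewer probes above background than any wild-type array, had the most muscle genes above it.

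The Cy3 channel holds the same reference RNA on every array, and yet it moved with these genes. The Cy3 level of Tnnc2 was 0.18, -0.80 and 2.38 on the wild-type and -0.90, -0.81, -0.82 and 0.97 on the PRA transgenic arrays, highest on the arrays where Cy5 was highest. Of the 33 tested members, 17 had a Cy3 span of 2-fold or more, against 18% of all probes, and the median Cy3 span was 1.04 (0.309 over all probes). The log2 ratio of Myh4 was accordingly flat at 5.20 on wild-type 1, 5.15 on wild-type 3 and 5.18 on PRA transgenic 4, although its Cy5 level differed 6.15-fold between the first and second of these. Ratios of such probes gave smaller distances between glands than Cy5 did. No spot was saturated, and the cause was not tested.

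Genes outside the 47 were compared to see how far the pattern reached. On a further list of 49 skeletal muscle genes the median by array was 0.13, -0.70 and 1.41 on the wild-type and -0.36, -0.42, -0.30 and 0.52 on the PRA transgenic arrays, and members above background numbered 40, 31 and 45 on the wild-type and 29, 30, 25 and 42 on the PRA transgenic arrays. Between genotypes 31 of them were tested: Ankrd2 passed P under 0.05 and 1.5-fold as higher and Cav3 as lower in PRA transgenic glands, against 1.94% and 2.58% of all probes, and neither had an adjusted p under 0.05. For Cav3 the wild-type arrays and PRA transgenic 4 were above background and the other 3 were not, and for Ankrd2 PRA transgenic 3 was not. The enzymes Pgam2 and Eno3 and the respiratory subunit Cox6a2 were high where Myh4 was, with Pgam2 at 1.19, -2.80 and 3.83 on the wild-type and -2.49, -2.70, -2.49 and 2.38 on the PRA transgenic arrays. Csrp3 and Sln were above background on PRA transgenic 4 alone, like the slow gene Myoz2. Not every gene of the list took part: Cox8b, its brightest and also a gene of brown fat, was at 5.46, 4.59 and 4.97 on the wild-type and 5.55, 5.26, 5.55 and 4.56 on the PRA transgenic arrays, and Fabp3 was high on PRA transgenic 2 as well as on wild-type 3. Beside these, a list of 9 brown adipocyte genes had Cy5 medians of 0.06, -0.46 and 0.17 on the wild-type and 0.26, 0.39, 0.18 and -0.73 on the PRA transgenic arrays, lowest on PRA transgenic 4, which was the lowest array for 5 of the 9. On the log2 ratio the list was lowest on wild-type 2 (-0.56) and next on PRA transgenic 4 (-0.34). Its summed level, as log2, was 5.03, 4.38 and 5.93 on the wild-type and 5.27, 5.94, 5.80 and 3.43 on the PRA transgenic arrays. Ucp1, the uncoupling protein that defines brown fat, was at 3.07, 0.72 and 4.23 on the wild-type and 3.63, 4.42, 3.77 and -0.60 on the PRA transgenic arrays, and Cidea, the brightest of the list, ranged from 2.99 on PRA transgenic 4 to 5.23 on wild-type 3. The part of brown fat in the levels of Cox8b and Fabp3 was not tested.

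The 10 genes outside the list whose tested probes lay nearest to the median profile of all 47 members, by root mean square difference of the log2 ratio, each probe minus its mean over the 7 arrays, were Tmod4 (0.362), Myom1 (0.391), Ccdc180 (0.400), Lmod3 (0.406), Eno3 (0.410), Gm15179 (0.412), Gfm2 (0.429), Hrc (0.432), Ankrd23 (0.435) and Esrrg (0.460). Tmod4 and Lmod3 cap and seed thin filaments, and Myom1 and Eno3 are a protein of the M band and the muscle enolase. Not all had the pattern in Cy5: Gfm2 was highest on PRA transgenic 1 (-3.51) and Esrrg on PRA transgenic 2 (-1.40). Ccdc180 was highest on PRA transgenic 4 (-3.80), but was at -4.31, -4.53 and -4.34 on wild-type arrays 1, 2 and 3. Of the 50 nearest probes with a gene name, 9 belonged to the 47 genes, 8 to the further muscle list and 33 to neither, out of 28397 named probes tested. The 33 lie outside these 2 lists, which do not hold every muscle gene, and their tissue was not tested.

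Lists of other cell types were read in the same way. For cardiac muscle the median of 12 genes was -0.01, 0.03 and -0.15 on the wild-type and 0.05, -0.13, -0.02 and 0.0043 on the PRA transgenic arrays, and the defining atrial heavy chain Myh6 was not above background on any array. Smooth muscle and myoepithelial genes were at -0.22, -0.37 and 0.23 on the wild-type and -0.04, 0.28, 0.09 and 0.15 on the PRA transgenic arrays; their brightest probe, Acta2, spanned 0.78. Satellite cell genes were at -0.29, -0.33 and -0.18 on the wild-type and 0.16, -0.05, 0.09 and -0.08 on the PRA transgenic arrays, with Pax7, Myf5 and Calcr not above background on any array. Only 2 of these 8 genes were above background on every array. The log2 ratio gave another order, with wild-type 3 highest (0.28) and PRA transgenic 3 lowest (-0.33). Summed levels are to be read across the arrays within a list, not between lists. The summed level, as log2, of the fast list was 6.35, 3.55 and 8.87 on the wild-type and 3.59, 3.49, 3.84 and 7.20 on the PRA transgenic arrays; that of the smooth muscle and myoepithelial list was 7.01, 6.94 and 7.54 on the wild-type and 7.31, 7.51, 7.35 and 7.43 on the PRA transgenic arrays, and that of the white adipocyte list 11.28, 11.44 and 10.89 on the wild-type and 11.68, 10.77, 11.14 and 11.22 on the PRA transgenic arrays. The tendon list, at -0.20, -0.27 and 0.41 on the wild-type and -0.14, -0.11, -0.19 and 0.25 on the PRA transgenic arrays, was highest on wild-type 3 and next on PRA transgenic 4, with a summed level of 0.56, 0.38 and 1.33 on the wild-type and 0.63, 1.09, 0.56 and 0.97 on the PRA transgenic arrays; Tnmd, its defining marker, was above background on 3 arrays. Basal epithelial genes, at -0.16, -0.23 and 0.25 on the wild-type and -0.24, 0.06, 0.07 and 0.12 on the PRA transgenic arrays, had the same 2 arrays on top by the Cy5 median, with a summed level of 4.72, 4.66 and 5.28 on the wild-type and 4.86, 5.06, 5.01 and 4.95 on the PRA transgenic arrays and Krt14 as the brightest. By summed level PRA transgenic 2 and 3 lay above PRA transgenic 4. Their log2 ratio medians spanned 0.13, with PRA transgenic 1 highest (0.07), wild-type 3 at -0.01 and PRA transgenic 4 at -0.03. Luminal epithelial genes were at 0.49, -0.57 and 0.18 on the wild-type and -0.10, 0.15, -0.37 and 0.08 on the PRA transgenic arrays, highest on wild-type 1 and lowest on wild-type 2, with a summed level of 8.53, 7.60 and 8.20 on the wild-type and 8.03, 8.30, 7.49 and 8.23 on the PRA transgenic arrays and Krt18 as the brightest. Endothelial genes, at -0.33, 0.33 and -0.46 on the wild-type and -0.06, -0.11, 0.10 and 0.13 on the PRA transgenic arrays, were highest in Cy5 on wild-type 2 and lowest on wild-type 3. This order did not hold on the log2 ratio, where they were highest on PRA transgenic 1 (0.36) and lowest on wild-type 2 (-0.43). Their Cy3 median on wild-type 2 was 0.65. White adipocyte genes were at 0.02, 0.35 and -0.32 on the wild-type and 0.59, -0.40, -0.20 and 0.01 on the PRA transgenic arrays, fibroblast genes at 0.25, 0.16 and -0.13 on the wild-type and -0.29, -0.06, -0.16 and 0.27 on the PRA transgenic arrays, and Schwann cell and nerve genes at -0.03, 0.22 and -0.25 on the wild-type and 0.35, -0.43, -0.06 and 0.13 on the PRA transgenic arrays. The part of these tissues in the result was not tested. Markers of skin, another tissue beside the gland, were at 0.20, -0.38 and -0.25 on the wild-type and 0.05, 0.03, 0.07 and -0.06 on the PRA transgenic arrays. Leukocyte genes had medians of 0.79, -0.12 and -0.23 on the wild-type and -0.43, -0.13, -0.27 and 0.07 on the PRA transgenic arrays, and the list split: 6 of the 9, the lymphocyte genes and Ptprc, were highest on wild-type 1, and the myeloid genes Adgre1, Csf1r and Lyz2 on PRA transgenic 4. The summed level, in which Lyz2 is the brightest, was 7.78, 7.80 and 7.83 on the wild-type and 7.01, 7.69, 7.22 and 8.40 on the PRA transgenic arrays, highest on PRA transgenic 4. The part of leukocytes in the muscle result was not tested.

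**Figure D4:**
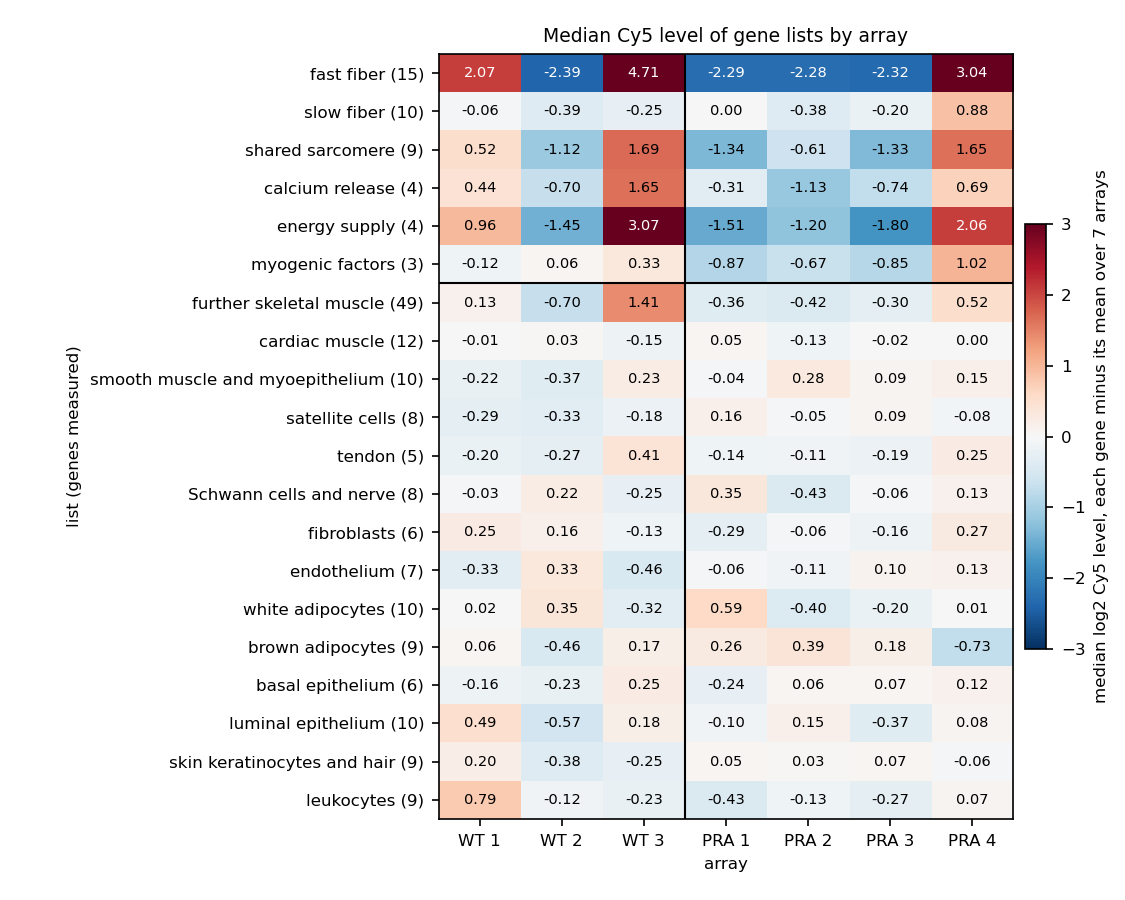
Median log2 Cy5 level of each gene list (rows, with the number of genes measured) on each array (columns), every gene minus its own mean over the 7 arrays, with a color scale that stops at 3 above and below 0; lists above the horizontal line are skeletal muscle genes by role and those under it are other lists, and the pair of developmental myosins is left out. The fast list goes from -2.39 on WT 2 to 4.71 on WT 3, while the cardiac list stays between -0.15 and 0.05.

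Promoters are shown for the heavy chains Myh4 and Myh1, whose levels parted on these arrays, and for Mylpf and Acta1, whose levels had the order of Myh4 on wild-type 1, wild-type 3 and PRA transgenic 4. Sequences are those of RefSeq on GRCm38.p6, the 250 bases before the transcript start, 5′ to 3′ on the gene's strand, and capitals mark CAGCTG (an E box of the kind that MyoD family factors bind), MEF2 sites and CArG boxes (the site of serum response factor), searched on both strands.
Myh4, chr11:67237562-67237811, plus strand: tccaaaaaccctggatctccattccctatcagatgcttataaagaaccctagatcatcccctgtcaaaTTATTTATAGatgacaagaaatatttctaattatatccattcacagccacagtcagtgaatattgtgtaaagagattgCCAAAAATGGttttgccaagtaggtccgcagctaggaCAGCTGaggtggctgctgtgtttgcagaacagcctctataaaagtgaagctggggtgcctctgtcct
Myh1, chr11:67199852-67200101, plus strand: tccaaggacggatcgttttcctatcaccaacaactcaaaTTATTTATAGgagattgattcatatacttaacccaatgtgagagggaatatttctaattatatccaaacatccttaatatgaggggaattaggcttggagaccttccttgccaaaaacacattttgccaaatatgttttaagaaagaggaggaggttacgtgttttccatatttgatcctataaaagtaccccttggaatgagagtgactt
Mylpf, chr7:127211358-127211607, plus strand: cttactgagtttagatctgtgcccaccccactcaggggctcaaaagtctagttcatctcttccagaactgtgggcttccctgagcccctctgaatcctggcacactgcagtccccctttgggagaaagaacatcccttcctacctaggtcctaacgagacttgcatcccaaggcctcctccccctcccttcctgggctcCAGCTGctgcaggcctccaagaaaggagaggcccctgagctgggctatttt
Acta1, chr8:123894776-123895025, minus strand: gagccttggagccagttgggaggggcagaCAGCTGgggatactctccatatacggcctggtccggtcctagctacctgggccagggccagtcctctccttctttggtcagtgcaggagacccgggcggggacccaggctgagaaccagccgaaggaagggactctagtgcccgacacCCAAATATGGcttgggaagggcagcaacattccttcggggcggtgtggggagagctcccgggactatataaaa
Myh4 held all 3 motifs, Myh1 a MEF2 site with the same 10 letters as that of Myh4, Mylpf 1 CAGCTG, and Acta1 a CAGCTG and a CArG box. In windows of 300 bases, from 250 before to 50 after the start, 34 of the 47 genes had 42 promoters in the table. Of these 42, 45.2% held CAGCTG, against 16.3% of all 32851 promoters, 19.0% a MEF2 site against 3.19%, and 11.9% a CArG box against 1.63%; the shorter CANNTG, which includes CAGCTG, was in 85.7% against 72.3%. CAGCTG was in 5 of 10 fast genes and 5 of 10 slow genes. These matches describe the letters in the window and are not shown to be sites.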

How the data were processed

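Total RNA of 7 glands, 3 wild-type and 4 PRA transgenic, was hybridized to two-color Agilent arrays. The authors deposited 1 scanner table per array, from Agilent Feature Extraction 12.0 by the submitters' processing notes, with Cy5 and Cy3 processed intensity values that the software had background-subtracted and dye-normalized, and a series table of log2 ratios. By comparison with the scanner values, 100% of the deposited log2 ratios were within 0.01 of the mean log2 ratio of a probe's spots minus that probe's median over the arrays.

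The 47 genes, their roles and the other lists were chosen with earlier results of these data known. Spots of a probe were averaged without control and outlier spots. In R 4.3.3, limma 3.58.1 (lmFit, eBayes) was fitted to the log2 ratios, and p-values were adjusted by Benjamini-Hochberg over the 34284 of 56605 probes above background in Cy5 on all arrays of at least 1 genotype. The fit was tested on simulated data. Levels were log2 Cy5 minus the 75th percentile of the array. Positions are those of the files (mm9), and names in other lists were updated through RefSeq. Genes given on every array were fixed by name with the roles, together with the largest and smallest span in each role, the 3 lowest limma P and the 10 nearest outside genes; Neb, Myot, Xirp2, Myoz2 and other genes of the further lists were named after their values were seen. The separate mice give 1 array each, so p-values cover the spread between mice; the number of arrays limits the precision. Alternatives were another background correction, the series table, other filters, Cy5 alone, quantile normalization, the methods' test, array weights, an intensity trend, each array left out and a block for the replicate number. The slide could not be a block, as there was only 1.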

Additional observations from a re-analysis of the deposited data

Results flagged for a closer look

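Among the 4 PRA transgenic arrays, PRA transgenic 4 stood apart from the other 3 on the log2 ratio. The gap to the nearest array, divided by the range of the group, was 0.945 for the median of all 47 skeletal muscle genes, 0.882 for the fast fiber genes, 0.899 for the slow fiber genes, 0.892 for the shared sarcomere genes, 0.862 for the members outside the fast and slow lists and 0.928 for the further list of skeletal muscle genes. Each is above Dixon's critical value for 4 samples, which chance exceeds in about 5% of groups. In all, 24 lists were looked at, 6 were past this value and chance gives 1.2; the lists share arrays and genes and are not independent. Gene by gene, 14 of the 47 were past it, each with PRA transgenic 4 highest, against 6.86% of all probes past it and 1.29% past it in that way; among those tested it was 9 of 33, against 5.1% and 1.03%; these genes were read on the same 4 arrays and are not independent. For 7 of the 14 every array of the group was above background, and for the other 7 (Actn3, Myl2, Myoz2, Actn2, Neb, Myot and Ckm) at least 1 of the lower arrays was not. The wild-type group of 3 arrays was not looked at in this way.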

How the results depend on the processing

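Probes past P under 0.05 and 1.5-fold numbered 1551; there were 326 with normexp and loess, 3367 with no filter, 468 with both channels above background on all arrays, 995 with the methods' test, 273 at P under 0.01 and 2-fold (a threshold added after seeing the data) and from 1381 to 2333 with an array left out. Probes at an adjusted p under 0.05 numbered 4, with 15 under no filter, 1 with the methods' test, 11 with array weights and from 1 to 12 with an array left out. The 2 muscle genes past P under 0.05 and 1.5-fold became 0 at P under 0.01 and 2-fold, 0 with normexp and loess, 0 with both channels above background, 0 with the methods' test, 1 in Cy5 alone (Jph1), 1 with array weights (Myod1) and from 1 to 7 with an array left out: 7 without wild-type 2 and 7 without PRA transgenic 4, of which Tnnc2, Tnni2 and Tnnt3 were in both sets. Without PRA transgenic 4, the calls of Casq1, Actn2 and Myod1 had no PRA transgenic array above background. The share of all probes past this rule is not given for Cy5 alone or array weights, so the counts of muscle genes there are not read against it. No muscle gene had an adjusted p under 0.05 under any of these alternatives. The median genotype difference of the members was below 0 under every alternative run, from -1.17 to -0.13 with an array left out. Fast minus slow on wild-type 3 was 4.95 in Cy5 alone against 2.75.

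With the replicate block, which pairs the mice numbered 1 to 3 and drops PRA transgenic 4, 2443 probes passed P under 0.05 and 1.5-fold, 0 an adjusted p and 10 muscle genes the first rule, where leaving out PRA transgenic 4 alone gave 7. Of the 10, Myh1, Actn2, Tcap and Myod1 had no PRA transgenic array above background in this fit, so their calls do not rest on levels measured in both genotypes. The numbers do not pair the mice: same-numbered arrays deviated with correlations of 0.0997, -0.297 and 0.0362.

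Of 544 alternative values for the 33 tested genes, 27, in 10 genes, had the other sign. With an array left out, differences ran from -1.85 to 0.40 for Acta1, -2.10 to 0.029 for Cacna1s, -0.86 to 0.31 for Ldb3, -0.26 to 1.02 for Mb, -0.74 to 0.38 for Mybpc1, -1.10 to 0.68 for Myh1, -1.40 to 0.46 for Myh2, -0.91 to 0.14 for Myl1 and -0.73 to 0.12 for Myl3; the values above 0 for Acta1, Cacna1s, Myl1 and Myl3 came without wild-type 3 only. Quantile normalization gave Mybpc1 0.081 and Myh1 0.048, normexp and loess Myh1 0.39 and Myh2 0.61, and Cy5 alone Myh2 0.75 and Myod1 -0.10. The cause of these shifts was not tested, apart from fewer probes under the stricter filter and fewer arrays where an array was left out.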
